A study of Mus musculus with 50 samples.

Results

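Mitochondrial ribosomal proteins were represented by 69 clones of 53 genes among the 22824 non-control clones of a spotted cDNA array. The clones were taken by name alone, as every non-control clone whose name on the array begins with "mitochondrial ribosomal protein". Of these clones, 19 belong to the small and 50 to the large ribosomal subunit, and 13 genes were spotted as 2 or 3 clones each (29 clones in all). A further 35 clones of mitochondrial ribosome proteins are listed under other names, such as RIKEN numbers, and were kept apart.

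The mitochondrial ribosome reads the few messages that mitochondrial DNA encodes, which are membrane-embedded subunits of the respiratory chain and of ATP synthase. Its proteins are all encoded in the nucleus, made in the cytosol and imported, while its RNAs come from the mitochondrial genome. The small subunit binds the message and the large subunit forms the peptide bond. Many of its proteins have counterparts in bacteria and others are found in mitochondria alone. Neurons depend strongly on the oxidative phosphorylation that this machinery serves.

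RNA came from punches of the paraventricular nucleus of the hypothalamus (PVN) and adjacent tissue of male C57BL/6J and DBA/2J mice aged 3 to 5 months. The mice were singly housed and either left unstressed or made to swim for 5 min in a water cylinder and killed 4 h or 8 h later. All were killed at the same time of day, so the 4 h and 8 h groups swam at different times of day. Each of the 6 combinations of strain and condition was 1 RNA pool of 6 animals, amplified in 2 rounds. There were 5 comparisons, each of 2 pools on 10 two-colour arrays: non-stressed DBA/2J against non-stressed C57BL/6J, and each stressed pool against the non-stressed pool of its own strain. In each comparison 5 arrays carried the numerator in Cy5 and 5 in Cy3. The arrays are therefore technical repeats, and every p-value measures labelling and hybridisation error between 2 pools, not the spread between animals. The non-stressed pool of a strain enters 3 comparisons, so these share their control.

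Values are log2 ratios after background correction and loess normalization. A clone was called where the mean log2 ratio was at least 0.5 in size and the limma p-value, adjusted by Benjamini-Hochberg over all 22824 clones, was under 0.05. Ratios run as the dyes in the labels state, DBA/2J over C57BL/6J and stressed over non-stressed. The study's own lists carry the opposite sign. By the study's real-time PCR, Gnai2 rose 4 h and App 8 h after stress in DBA/2J, the direction of its lists. The labels alone do not settle which sign is right, so every direction below would turn if the labelled dyes were swapped.

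Signal was modest. The median spot intensity per array and channel lay between 127 and 445 fluorescence units, and each comparison was scanned on 1 to 3 days. The number of ribosomal protein clones that exceeded the 95th percentile of the empty spots in neither channel of any array was 43 of 69 in the non-stressed strains, against 64.0% of all clones. This number was 5 at 4 h and 29 at 8 h in C57BL/6J, against 12.3% and 48.1% of all clones. In DBA/2J it was 33 at 4 h and 62 at 8 h, against 55.8% and 87.4%. The median standard error of the 69 log2 ratios ran from 0.137 in C57BL/6J at 4 h to 0.184 in the non-stressed strains. The 95% interval of the log2 ratio lay wholly within 1 of 0 for 66 to 68 of the 69 clones, depending on the comparison. It lay within 0.5 of 0 for only 20 to 36 of them, so for the other clones a log2 ratio of 0.5 in size was within the interval. The mean log2 ratio had the same sign in both dye orientations for 30 to 37 of the 69 clones, depending on the comparison. Over all clones this share was 42.3% to 52.0%. Between orientations the means of the 69 clones correlated at -0.25 to -0.01, and those of all clones at -0.26 to 0.12. The spread of the means over clones was therefore not reproduced between orientations. The 9 clones listed for the punched nucleus were of Sst, Oxt, Scg2, Pou3f2, Nr3c1, Trh and Avp. Not all of these genes are specific to it. The clones were above the 95th percentile of the empty spots in both channels on 0 to 40 of the 50 arrays. Oxt, the oxytocin precursor, was above this percentile on 0, Avp, the vasopressin precursor, on 11, Trh on 17 and Nr3c1, the glucocorticoid receptor, on 40. The 15 clones of thalamic markers also spread widely, from 0 to 50 arrays.

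The upstream sequences of the 2 genes that carried a called clone are shown because these were the only members past the threshold. They are the 250 bases before the RefSeq transcription start in GRCm38.p6, with Mrpl3 at chr9:105053018-105053267 and Mrpl28 at chr17:26123253-26123502, both on the plus strand. Capitals mark the ETS motif CCGGAAGT and the CCAAT box, on either strand, so that ATTGG is a CCAAT box read backwards. In Mrpl28 boxes on both strands overlap, as CCAATTGG.
Mrpl3: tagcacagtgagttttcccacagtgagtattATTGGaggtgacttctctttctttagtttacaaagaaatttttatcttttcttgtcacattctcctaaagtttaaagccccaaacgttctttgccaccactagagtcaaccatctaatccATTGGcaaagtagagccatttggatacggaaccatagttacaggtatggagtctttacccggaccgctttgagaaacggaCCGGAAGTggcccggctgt
Mrpl28: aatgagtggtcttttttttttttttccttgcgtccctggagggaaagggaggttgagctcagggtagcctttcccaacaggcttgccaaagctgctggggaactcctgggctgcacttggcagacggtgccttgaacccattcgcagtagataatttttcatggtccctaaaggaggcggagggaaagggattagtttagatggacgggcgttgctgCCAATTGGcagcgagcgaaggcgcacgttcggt

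Of the 53 gene symbols, 47 matched a RefSeq upstream sequence, and motifs were searched on both strands of the 250 bases. The NRF1 motif, GCGCA and GCGC with any base N between them, was found in 10 of the 47 (21.3%), against 4.23% of the 27025 genes in the table. NRF1 and ETS-family factors are textbook regulators of nuclear genes for mitochondria. The ETS motif was found in 5 (10.6%, against 3.23% of all genes) and the YY1 motif AAGATGGC in 4 (8.51%, against 1.83%). CCAAT boxes were as frequent as elsewhere, in 18 of 47 (38.3%, against 37.5%), and TATAAA was found in 3 (6.38%, against 14.3%). Neither called gene holds the NRF1 motif in this window. None of these motifs contains another. A match describes letters and is not evidence of binding.

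In the non-stressed strains, 2 of the 69 clones were called, against 3.62% of all clones tested. In DBA/2J 1 was lower, against 2.02%, and 1 higher, against 1.6%. Both encode large-subunit proteins with bacterial counterparts. Mrpl28 was lower in DBA/2J and Mrpl3 was higher in 1 of its 2 clones. At an unadjusted p under 0.05 there were 8 of the 69, against 15.4% of all clones, with 6 higher (against 7.82%) and 2 lower (against 7.59%). The t-test of the study's methods, adjusted and with the same fold threshold, called 1 of the 69, against 3.09% of all clones, and 7 had an unadjusted p under 0.05, against 14.3%. The fold threshold alone was passed by 4, against 7.79%. The median log2 ratio of the 69 clones was 0.04, beside 0.01 for all clones, and 41 lay above 0. As a group the clones therefore sat close to the whole array in this comparison.

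**Figure D1:**
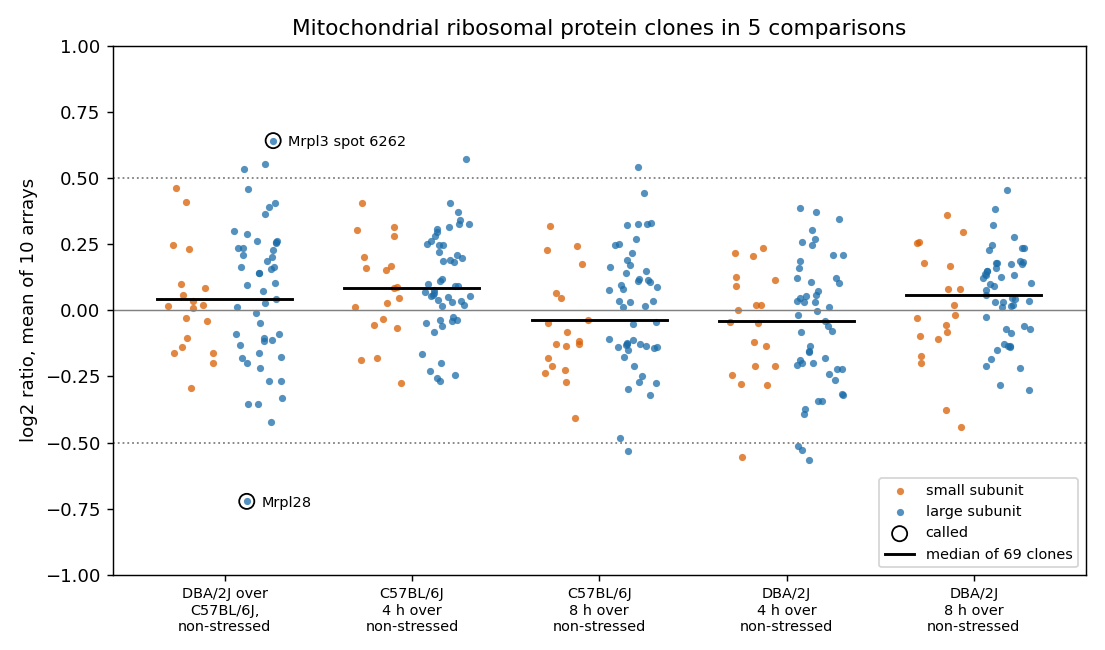
Each point is the mean log2 ratio of 1 clone over 10 arrays, small-subunit clones in orange and large-subunit clones in blue, for the 5 comparisons. Black lines are the medians of the 69 clones, dotted lines mark the fold threshold of 0.5, and circles mark the 2 called clones, both in the non-stressed strains.

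Mrpl28 lay at a lowest log2 ratio of -1.13, a median of -0.75 and a highest of -0.21 over the 10 arrays. It was lower in DBA/2J on every array, whichever pool carried Cy5. Its mean log2 ratio was -0.72 (SE 0.139, n = 10 arrays, limma adjusted p = 0.00833), which is a 1.65-fold lower signal in the DBA/2J pool. The mean was -0.69 with DBA/2J in Cy5 and -0.76 with DBA/2J in Cy3. On the 7 arrays of the first scan day it was -0.81 and on the other 3, all with DBA/2J in Cy3, it was -0.52. Mrpl28 was above the 95th percentile of the empty spots in both channels on all 10 arrays. Beyond its place in the ribosome, the human protein is known as an antigen seen by T cells in melanoma.

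Mrpl3, a protein of the core of the large subunit that is mutated in a human mitochondrial cardiomyopathy, was spotted as 2 clones. The clone at spot 6262 (the position number in the files) had a lowest log2 ratio of -0.04, a median of 0.45 and a highest of 1.54. It was above 0 on 9 of 10 arrays, but much less so in 1 dye orientation than in the other. The mean was 0.20 with DBA/2J in Cy5 and 1.08 with DBA/2J in Cy3, and 0.64 overall (SE 0.139, n = 10 arrays, limma adjusted p = 0.0168). By scan day the mean was 0.44 on 7 arrays and 1.12 on 3. This clone was dim, above the 95th percentile of the empty spots on 1 of 10 arrays in the DBA/2J channel and on 0 in the C57BL/6J channel. It no longer passed when the dye term was left out (adjusted p = 0.0658), and a filter on dim clones removed it.

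The other Mrpl3 clone, at spot 4317, lay at -0.93, -0.20 and 1.31 as lowest, median and highest log2 ratio of the 10 arrays. Its mean was -0.20 (SE 0.190, n = 10 arrays, limma adjusted p = 0.684), so that the clones of this gene had opposite signs. The difference between the clones, spot 4317 minus spot 6262, was -0.84 ± 0.70 (SD, n = 10 arrays), and the first was higher on 1 of 10 arrays (exact two-sided sign-flip permutation p = 0.00586). Over the 95 such tests made between clones of 1 gene this p was 0.433 after Benjamini-Hochberg adjustment.

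**Figure D2:**
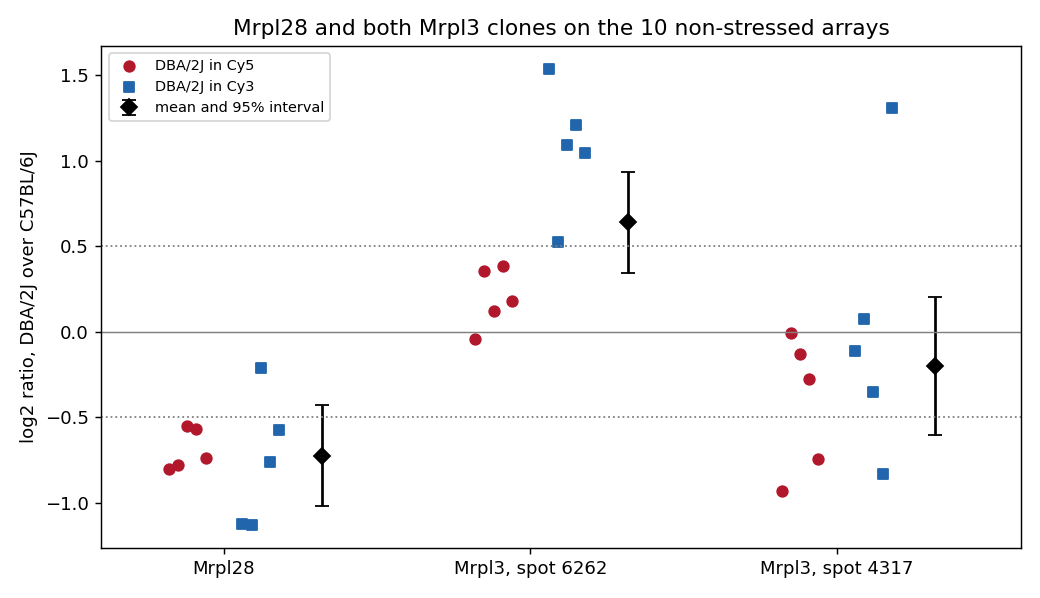
Log2 ratios of DBA/2J over C57BL/6J on each of the 10 non-stressed arrays for Mrpl28 and both Mrpl3 clones, with symbols for the dye that carried DBA/2J and diamonds with bars for the mean and its 95% interval. All Mrpl28 points lie below 0, and the Mrpl3 clone at spot 6262 is higher where DBA/2J was in Cy3 (mean 1.08) than where it was in Cy5 (mean 0.20).

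Clones of 1 gene are meant to give a second reading of the same transcript, but here they often differed in sign. Among the 19 pairs of clones, the 2 means had opposite signs in 11 pairs in the non-stressed strains and in 43 of 95 over the 5 comparisons. The differences within pairs passed an unadjusted p of 0.05 in 6 of 95 exact tests and in 0 after adjustment, where the smallest p that 10 arrays allow is 0.00195. Mrpl3 had the lowest p of all pairs. The clones of Mrpl15 had log2 ratios of 0.36 (spot 10047) and -0.27 (spot 9876), with overlapping intervals. Mrpl9, by contrast, had 2 clones on 1 side, at 0.40 (spot 5258) and 0.29 (spot 4803), neither called.

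**Figure D3:**
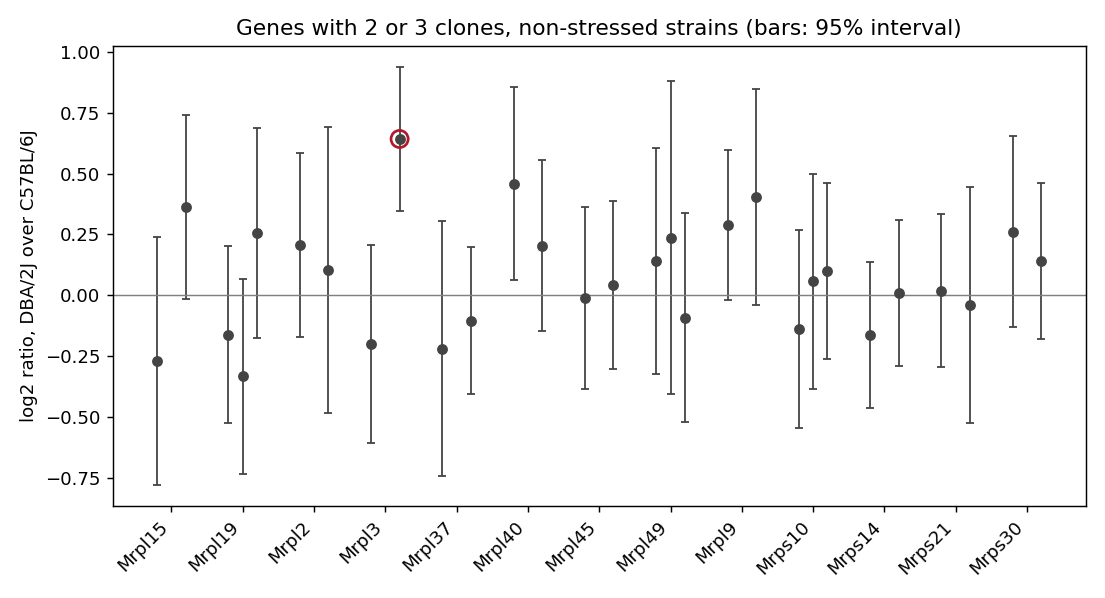
Mean log2 ratio of DBA/2J over C57BL/6J with its 95% interval for each clone of the 13 genes that have 2 or 3 clones, non-stressed strains, 10 arrays each. The red circle marks the called Mrpl3 clone at 0.64, beside the second Mrpl3 clone at -0.20.

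The other clones at the ends of the non-stressed comparison did not pass. In the large subunit, Mrpl30 had a log2 ratio of 0.55 (SE 0.200, limma adjusted p = 0.175) and was above 0 on 9 of 10 arrays. Mrpl27, the counterpart of a bacterial protein near the peptidyl transferase centre, had 0.53 (SE 0.161, limma adjusted p = 0.0899) and was above 0 on 8. Both were called when all 50 arrays were fitted together, with limma adjusted p of 0.00839 and 0.0180. Mrpl27 was also called with scan day as a random block (0.53, limma adjusted p = 0.0405) and under median centring (0.65, limma adjusted p = 0.0375). In the small subunit the highest were Mrps5 at 0.46 and Mrps16 at 0.41, above 0 on 7 arrays each. At the other end stood Mrpl38, a mitochondria-specific protein, at -0.42 (limma adjusted p = 0.303), followed by Mrpl54 at -0.36, Mrpl34 at -0.35 and Mrps15 at -0.29. Every one of these 8 clones had arrays on both sides of 0. Mrpl38 ran from -1.83 to 0.66, and Mrpl54 was above 0 on 6 of 10 arrays in spite of its negative mean. Other positive values were those of Mrpl40 (spot 2680) at 0.46, Mrpl51 at 0.39 and Mrpl36, the counterpart of one of the smallest bacterial ribosomal proteins, at 0.30.

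By subunit, the median log2 ratio in the non-stressed strains was 0.02 for the 19 small-subunit clones and 0.10 for the 50 large-subunit clones. The 43 clones with bacterial counterparts had a median of 0.06 and the 24 mitochondria-specific ones 0.03. Both called clones fell in the first class. No subunit or class held another called clone in any comparison.

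The Mrps18 family holds 3 paralogues of a single bacterial protein, of which Mrps18a sits in the large subunit and Mrps18b and Mrps18c in the small one. Mrps18a, the only one that carries the family name on this array, had log2 ratios of 0.16 in the non-stressed strains, 0.19 and -0.27 in C57BL/6J at 4 h and 8 h, and -0.20 and 0.01 in DBA/2J at 4 h and 8 h. None was called. Mrps18c, listed under a RIKEN name (spot 9697) and therefore among the 35 further clones, was higher in non-stressed DBA/2J. Its arrays lay at 0.33, 1.55 and 2.15 as lowest, median and highest log2 ratio, all 10 above 0, and the mean was 1.40 (SE 0.189, limma adjusted p = 0.000858). It was above the 95th percentile of the empty spots on 8 of 10 arrays in the DBA/2J channel and on 0 in the C57BL/6J channel. This 0 does not mean absence. In the stress comparisons the non-stressed C57BL/6J pool was above this percentile on 10 of 10 arrays at 4 h and at 8 h. The non-stressed DBA/2J pool was above it on 4 of 10 arrays at 4 h and on 0 at 8 h. Array brightness differed between comparisons. Mrps18c is given as lower in DBA/2J in the study's list. After stress its log2 ratios were small, at -0.01 and -0.19 in C57BL/6J and 0.17 and 0.09 in DBA/2J at 4 h and 8 h. Mrps18b (spot 22032) stood at 0.17 in the non-stressed strains and was called in none. Mrps18c was the only 1 of the 35 further clones called between the strains, against 3.62% of all clones. Of the 35, 11 had an unadjusted p under 0.05, against 15.4% of all clones, and their median was 0.08.

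After forced swimming, none of the 69 clones was called in C57BL/6J at 4 h, where 0.289% of all clones were, nor at 8 h, against 0.0832%. At 4 h there were 12 clones at an unadjusted p under 0.05, 11 of them higher after stress, against 12.3% of all clones. The shares of all clones were 5.97% higher and 6.3% lower. By the methods' t-test, adjusted and with the fold threshold, 0 were called, against 0.451%, and 10 had an unadjusted p under 0.05, against 11.8%. The fold threshold alone was passed by 1, against 2.5%. The median of the 69 clones was 0.09, beside 0.00 for all clones, and 50 of them (72.5%) lay above 0, against 50.4% of all clones.

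Mrps21, a small-subunit protein, had the lowest p of these at spot 3387, with log2 ratios of 0.06, 0.39 and 0.52 as lowest, median and highest. All 10 arrays were above 0 and the mean was 0.31 (SE 0.0865, limma adjusted p = 0.159). Its second clone, at spot 18190, had 0.09 (limma adjusted p = 0.864). Mrpl44, a large-subunit protein with a ribonuclease III fold, had 0.33 (limma adjusted p = 0.257) and was above 0 on 9 arrays. Mrps16 had 0.40 with the same adjusted p of 0.257. Mrpl19 at spot 20995 had the highest mean, 0.57, but its arrays spread from -0.49 to 1.68 (limma adjusted p = 0.349), and its clones at spots 113 and 23292 stood at 0.08 and -0.16. The lowest were Mrps10 (spot 17271) at -0.28, Mrpl34 at -0.27 and Mrpl3 (spot 4317) at -0.26. Mrpl28 had -0.23 (limma adjusted p = 0.356).

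At 8 h in C57BL/6J the median of the 69 clones was -0.04, beside -0.01 for all clones, and 34 lay above 0. In limma 3 clones had an unadjusted p under 0.05, against 9.28% of all clones. The methods' t-test called 0 after adjustment and the fold threshold, against 0.171%, and had 4 at an unadjusted p under 0.05, against 8.25%. The fold threshold alone was passed by 2, against 3.7%. The largest values belonged to Mrpl44 at 0.54 (limma adjusted p = 0.562) and Mrpl37 (spot 15480), a mitochondria-specific large-subunit protein, at -0.53 (limma adjusted p = 0.481). The other Mrpl37 clone, at spot 4062, stood at 0.12, and it was higher than the first on 8 of 10 arrays (exact two-sided sign-flip permutation p = 0.0449, adjusted 0.742 over the 95 tests). The arrays of Mrpl44 ran from -1.08 to 1.88, so this mean is not held by all of them. Mrps17 stood at -0.41, Mrpl39 at -0.32 and Mrpl19 (spot 113) at -0.30. On the other side Mrpl49 had 0.33 and 0.32 in the clones at spots 3438 and 20943 but 0.03 in the clone at spot 18271, and Mrpl9 (spot 5258) had 0.33.

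In DBA/2J none of the 69 was called at 4 h, against 0.153% of all clones, nor at 8 h, against 0.158%. At 4 h there were 7 clones at an unadjusted p under 0.05, against 10.7% of all clones, with 1 higher (against 5.25%) and 6 lower (against 5.42%). The methods' t-test also had 7 such clones, against 9.87%, and 0 after adjustment and the fold threshold, against 0.368%. The fold threshold alone was passed by 4, all of them lower, against 4% of all clones. The median was -0.04, beside 0.00 for all clones, and 31 lay above 0. The 43 clones with bacterial counterparts had a median of 0.02 and the 24 mitochondria-specific ones -0.13, with 7 of the 24 above 0.

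Mrpl37 was the gene with the lowest values, in both of its clones. At spot 4062 the arrays lay at -1.57, -0.50 and -0.07 as lowest, median and highest, all 10 below 0, and the mean was -0.57 (SE 0.160, limma adjusted p = 0.197). At spot 15480 the mean was -0.53 (SE 0.171, limma adjusted p = 0.270), with 1 of 10 arrays above 0. Mrps23, a mitochondria-specific small-subunit protein, had -0.55 (limma adjusted p = 0.419) and Mrpl3 (spot 4317) -0.51 (limma adjusted p = 0.310). The other Mrpl3 clone had 0.18. Mrpl4, the counterpart of a bacterial protein, had -0.39. The highest was Mrpl19 (spot 113) at 0.39 (limma adjusted p = 0.295), followed by Mrpl2 (spot 23612), a protein close to the peptidyl transferase centre, at 0.37. Mrpl28, lower in this strain without stress, stood at 0.12.

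At 8 h in DBA/2J the median was 0.06, with 44 of 69 above 0. The limma fit had 1 clone at an unadjusted p under 0.05, Mrps15, against 12% of all clones. The methods' t-test also had 1, against 11.9%, and 0 after adjustment and the fold threshold, against 0.39%. Mrps15, a small-subunit protein, had a log2 ratio of -0.38 (limma adjusted p = 0.269), and its mean was 0.05 with the stressed pool in Cy5 and -0.80 with it in Cy3. Mrpl36 had 0.46 and Mrpl38 0.38, neither past the threshold, and Mrps10 (spot 10888) had -0.44. Mrps31 stood at 0.36, Mrpl44 at 0.32, Mrps22 at 0.30 and Mrpl52 at -0.30. Of the 69 clones, 62 exceeded the 95th percentile of the empty spots in neither channel of any array here, against 87.4% of all clones, while 42 were above the median of the empty spots on every array.

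On single arrays, the median of the 69 clones in C57BL/6J at 4 h was -0.02 at the lowest, 0.12 in the middle and 0.21 at the highest, and above 0 on 9 of 10 arrays. In C57BL/6J at 8 h it lay between -0.18 and 0.08 and was above 0 on 2 arrays. In DBA/2J at 4 h it lay between -0.19 and 0.13, above 0 on 2 arrays, with a mean of -0.01 where the stressed pool was in Cy5 and -0.11 where it was in Cy3. In DBA/2J at 8 h it lay between -0.07 and 0.10. The non-stressed strains split by dye, from -0.11 to 0.20, with all 5 arrays that carried DBA/2J in Cy5 below 0 (mean -0.07) and all 5 of the other orientation above 0 (mean 0.13). A single scan day covered every array of the C57BL/6J comparison at 4 h.

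**Figure D4:**
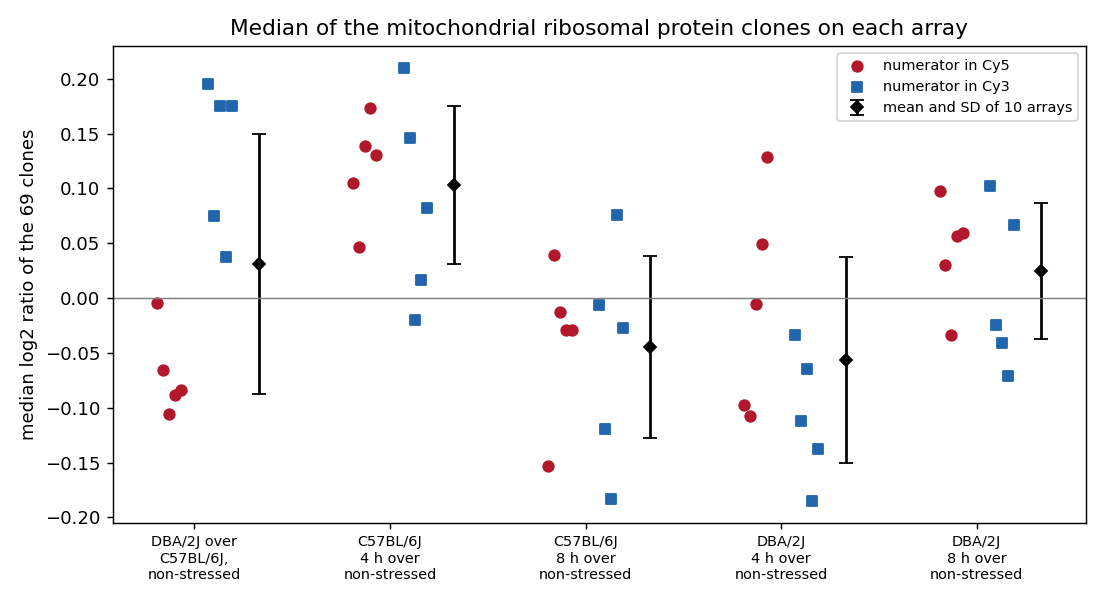
Median log2 ratio of the 69 clones on each of the 50 arrays, by comparison and by the dye of the numerator, with diamonds and bars for the mean and SD of 10 arrays. In C57BL/6J at 4 h 9 of 10 arrays lie above 0, and in the non-stressed strains the dye orientations lie on opposite sides of 0.

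The difference between the strains in the response to stress was tested directly, as the DBA/2J log2 ratio minus the C57BL/6J log2 ratio over 20 arrays. At 4 h none of the 69 clones was called, against 1.9% of all clones, and 10 had an unadjusted p under 0.05, against 12.8%. Of the 10, 3 were higher (against 6.45%) and 7 lower (against 6.3%). The median difference was -0.17, beside 0.00 for all clones, and 20 of the 69 lay above 0. Of the 35 further clones 17 lay above 0, with a median of -0.04. Cell type markers moved in the same difference. Of 36 astrocyte clones 3 were called lower (Aldoc at -0.83 and Glul at -0.70 and -0.61), with a median of -0.11, and of 40 neuron clones 2 were called lower (Thy1 at -0.89 and Eno2 at -0.70), with a median of -0.06. Of the 9 clones listed for the PVN, Trh was called lower at -1.08 and Nr3c1 higher at 0.68. The 6 red blood cell clones had a median of -0.35, none above 0 and none called. In this difference 0.951% of all clones were called in each direction. The part of the markers in the median of the 69 clones was not tested.

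Mrps21 (spot 3387) had the lowest adjusted p, with a difference of -0.60 (SE 0.165, limma adjusted p = 0.0651) between -0.28 in DBA/2J and 0.31 in C57BL/6J. The second Mrps21 clone (spot 18190) differed by -0.37 (limma adjusted p = 0.539). The clone at spot 3387 passed under 4 alternative settings, with differences of -0.64 to -0.59. Mrpl37 had -0.76 (SE 0.226, limma adjusted p = 0.0914) at spot 4062 and -0.63 (limma adjusted p = 0.242) at spot 15480, both clones on the same side. Mrpl34, a small protein of the large subunit, went the other way with 0.57 (limma adjusted p = 0.314), as did Mrpl28 with 0.35 (limma adjusted p = 0.307). Of the 35 further clones 1 was called lower and 1 higher, against 0.951% of all clones in each direction. These were Mrpl22 (spot 21305) at -1.08 (limma adjusted p = 0.0284) and a clone of the L33 product (spot 18946) at 0.59 (limma adjusted p = 0.0373). The second Mrpl22 clone (spot 18612) was not called, and the member clone Mrpl33 (spot 8142) differed by -0.006 (limma adjusted p = 0.994). Mrpl22 (spot 21305) was dim in DBA/2J at 4 h. It exceeded the 95th percentile of the empty spots on 0 of 10 arrays in the stressed channel and on 1 in the non-stressed.

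**Figure D5:**
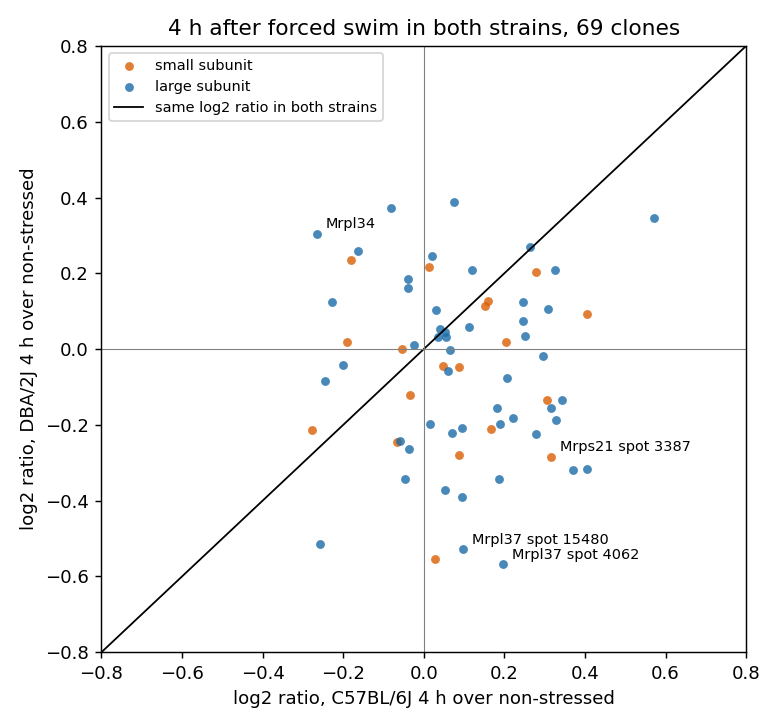
Log2 ratio 4 h after forced swimming in DBA/2J (vertical) against C57BL/6J (horizontal), 1 point per clone, with small-subunit clones in orange and large-subunit clones in blue. Most points lie below the line of equal ratios, 20 of 69 lie above it, and the named clones are those with the values given in the text, none of them called.

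At 8 h the strain difference called 0 of the 69, against 0.526% of all clones, with a median of 0.04 and 2 clones at an unadjusted p under 0.05, against 9.81%. Mrpl37 (spot 15480) differed by 0.55 (limma adjusted p = 0.498), beside -0.63 at 4 h from the same non-stressed pools. The other Mrpl37 clone (spot 4062) differed by -0.19 at 8 h. The further clone Gadd45gip1 (spot 19889), a large-subunit protein also known as a partner of a growth-arrest factor, was called at 0.70 (limma adjusted p = 0.0181). It was the only 1 of the 35 further clones called here, and the clones of the same gene at spots 13684, 13730 and 18769 were not.

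Between times within a strain, 8 h minus 4 h, the test called 0 of the 69 in C57BL/6J, against 0.407% of all clones, and 0 in DBA/2J, against 0.675%. In C57BL/6J 8 clones had an unadjusted p under 0.05, against 10.3% of all clones. All 8 were lower at 8 h, where the shares of all clones were 4.74% lower and 5.53% higher. The median difference was -0.08. The largest was Mrpl23, a protein beside the exit tunnel, with -0.80 (limma adjusted p = 0.444), and Mrps25 had the lowest p, with -0.58 (SE 0.186, limma adjusted p = 0.230). In DBA/2J 4 clones had an unadjusted p under 0.05, against 11.5%, with 3 higher at 8 h (against 5.77%) and 1 lower (against 5.73%). The higher ones were Mrps31 at 0.60 (limma adjusted p = 0.432), Mrpl37 (spot 15480) at 0.55 (limma adjusted p = 0.285) and Mrpl9 (spot 4803) at 0.53 (limma adjusted p = 0.199). The lower one was Mrpl19 (spot 113) at -0.67 (limma adjusted p = 0.193), between -0.28 at 8 h and 0.39 at 4 h. The largest difference was that of Mrpl36, 0.77 (limma adjusted p = 0.455), between 0.46 at 8 h and -0.32 at 4 h. The median difference was 0.07. The time of day of the swim changes with the hours after it, so these cannot be told apart.

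Other groups of the same machinery are given by their counts. Of 78 clones of cytosolic ribosomal proteins, which serve the translation of nuclear messages, 10 were called higher and 0 lower in non-stressed DBA/2J, against 1.6% and 2.02% of all clones, with a median of 0.16. The largest was ribosomal protein L21 at 1.31. In C57BL/6J at 4 h 0 of the 78 were called, the median was 0.15 and 64 lay above 0. In the strain difference at 4 h 4 of the 78 were called lower and 0 higher, against 0.951% of all clones in each direction, with a median of -0.19. Both kinds of ribosomal protein thus had medians of the same sign in these comparisons, and the cytosolic ones the larger.

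Of 63 oxidative phosphorylation subunits, the enzymes that mitochondrial translation feeds, 1 was called higher in non-stressed DBA/2J (Ndufa4, spot 6459, 0.56) and 1 lower (Ndufv1, spot 20088, -1.11), with a median of 0.08. This and the next 2 lists are small, and 3.62% of all clones were called in that comparison. Of 37 clones of mitochondrial translation factors and tRNA synthetases 1 was called, Trmu, a tRNA-modifying enzyme, at -0.70. In the strain difference at 4 h 1 of the 37 was called, against 1.9% of all clones. It was Mrm3, a methyltransferase of the mitochondrial large ribosomal RNA, at 0.86. Of 18 clones for mitochondrial DNA maintenance and transcription 1 was called between the strains, Polrmt, the mitochondrial RNA polymerase, at -0.53. It was also the only 1 of the 18 called in the strain difference at 4 h, at 0.91, against the same 1.9%. Of 10 mitochondrial proteases and chaperones 0 were called between the strains by limma, with 1 at an unadjusted p under 0.05. In DBA/2J at 4 h 1 of the 10 was called, against 0.153% of all clones. It was Clpx, the unfoldase of the matrix protease ClpXP, at 1.06 (limma adjusted p = 0.0309).

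Markers of cell types moved beside the 2 called clones in the non-stressed strains. Of all clones in that comparison 1.6% were called higher and 2.02% lower. Of 35 oligodendrocyte marker clones 7 were higher and 2 lower in DBA/2J, with a median of 0.20, and of 36 astrocyte clones 6 were higher and 0 lower, with a median of 0.13. Of 6 red blood cell clones 2 were higher, and of 15 thalamic clones 2 were higher and 2 lower. Neuron markers had 1 of 40 lower, and of the 9 clones listed for the PVN 1 was lower, of Scg2. The part of cell composition in the values of Mrpl28 and Mrpl3 was not tested, and in pooled tissue fewer cells of a type and less RNA per cell cannot be told apart. In C57BL/6J at 4 h, where 0 of the 69 clones were called and their median was 0.09, 0 marker clones of these types were called. Astrocyte markers had a median of 0.13 there, with 23 of 36 above 0 and 10 at an unadjusted p under 0.05, against 12.3% of all clones. Red blood cell markers had a median of 0.20, with 5 of 6 above 0. Oligodendrocyte markers had a median of -0.04, with 11 of 35 at an unadjusted p under 0.05. The other medians were -0.06 for the PVN list, -0.01 for thalamic, 0.03 for neuron, 0.06 for microglia and 0.05 for endothelial markers. The part of these markers in the median of the 69 clones was not tested.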

How the data were processed

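The deposited scanner files hold, per the file headers, one intensity per spot, channel and array from a fixed-circle quantification, with the local background. The authors amplified pooled RNA in 2 rounds and labelled it through amino allyl aRNA. A second deposited table holds log2 ratios that the authors normalized. It covers 18845 non-control spots, 52 of the 69 clones among them, and was used only as an alternative. Its ratios were turned to the labelled numerator.

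Intensities were corrected with normexp (offset 50) and normalized within each array by global loess with control spots at weight 0. The log2 ratios were fitted in limma 3.58.1 (R 4.3.3) with a term for dye orientation, over 22824 clones and 10 arrays per comparison, or 20 arrays for a difference. Figures were drawn with matplotlib 3.10.9. The fit was checked on simulated ratios. The 1368 control spots were left out, and columns of per-sample values not used numbered 0. Clones of 1 gene were not averaged.

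Described clones were every called one, the 10 highest and 10 lowest in the non-stressed strains and the 5 highest and 5 lowest in each stress comparison with the same sign in both dye orientations, all clones of genes so chosen that have several, and the Mrps18 family. The text gives a part of them, and single clones outside the rule (Mrps15 at 8 h, the largest of the differences, further clones) were chosen after their values were seen. From other lists at most 4 called clones were named. The members, lists and tests were chosen with earlier results of these data known. Alternatives covered background, normalization, dye term, test, call rule, batch and samples. Clone pairs were compared by exact sign-flip permutation of the array differences. Arrays repeat pools, so n counts arrays and their number limits the precision.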

Additional observations from a re-analysis of the deposited data

How the results depend on the processing

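The number of the 69 clones called between the non-stressed strains was 2. It was 1 with a filter on dim clones, without the dye term, with the methods' t-test after adjustment and with the fold and Z-score rule. Of all clones these settings called 581, 664, 706 and 637 in this order. It was 4 with the methods' t-test unadjusted, with the fold threshold alone and with all 50 arrays in one fit. Of all clones these called 1535, 1779 and 1177. It was 3 under median centring and with scan day as a block, beside 1125 and 1212 of all clones. The counts of the 69 clones thus rose where those of the whole array did. It was 0 with either dye orientation alone and with the orientations averaged, where few residual degrees of freedom remain. Of all clones 35 were called with DBA/2J in Cy5 only, 140 with it in Cy3 only and 47 with the orientations averaged. Mrpl28 was called under 15 and Mrpl3 (spot 6262) under 11 of 18 such settings, and both in all 10 fits that left out 1 array each, with log2 ratios of -0.79 to -0.68 and 0.58 to 0.71. In C57BL/6J at 4 h the methods' t-test unadjusted and the fold threshold alone called 1 clone, Mrpl19 (spot 20995), beside 445 and 571 of all clones. At 8 h the fold threshold alone called 2, beside 844 of all clones, and the median of the 69 clones was 0.0501 with the numerator in Cy5 only. In DBA/2J at 4 h the methods' t-test unadjusted called 3 and the fold threshold alone 4, beside 711 and 913 of all clones. In the strain difference at 4 h 1 clone, Mrps21 (spot 3387), was called under print-tip loess, median centring, the authors' processed values and all 50 arrays in one fit. Of all clones these settings called 564, 425, 619 and 538. With the further clones counted in, a choice made after seeing the data, the strain difference called 2 at 4 h and 1 at 8 h. Of all clones 1.9% and 0.526% were called there. No direction turned in any setting for a called clone. The cause of these shifts was not tested.

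With the replicate number as a block, 0 of the 69 clones were called in each of the 4 differences, as without it. The numbers did not pair the arrays, since the correlations of same-numbered arrays lay between -0.02 and 0.02 and 0 of 10 pairs in any difference exceeded 0.1. Over all clones the block gave 51, 24, 16 and 0 calls in the strain differences at 4 h and 8 h and the time differences of C57BL/6J and DBA/2J, against 434, 120, 93 and 154 without it. An array correlated best with its own number for 0 or 1 of 10 numbers. In DBA/2J at 8 h 62 of 69 clones exceeded the 95th percentile of the empty spots on no array.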
